A study of Arabidopsis thaliana with 30 samples.

Results

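The genes that make jasmonate and the genes of the vegetative storage proteins (VSPs) were followed across Arabidopsis seedlings with altered DXO1 or RNMT1, with and without abscisic acid (ABA). The set has 10 members of the 32833 genes in the deposited count table. They were taken by gene identifier and not by a cutoff on measured values, though with earlier results of these data known. They are the lipoxygenase genes LOX2 (AT3G45140), LOX3 (AT1G17420) and LOX4 (AT1G72520), the allene oxide synthase gene AOS (AT5G42650), the allene oxide cyclase genes AOC1 (AT3G25760), AOC2 (AT3G25770) and AOC3 (AT3G25780), the oxophytodienoate reductase gene OPR3 (AT2G06050), and VSP1 (AT5G24780) and VSP2 (AT5G24770). Whole seedlings were 5 days old and were pooled within each sample. Their total RNA, taken after 3 h with 50 µM ABA or after mock treatment, was made into mRNA libraries and sequenced. The 5 genotypes gave 10 groups of 3 libraries, 30 in all. *dxo1* carries a T-DNA insertion in DXO1, a gene whose protein joins an N-terminal extension to a catalytic domain of the DXO family of RNA decapping and decay enzymes. *dxo1*/*cDXO1* (DXO1-C/dxo1 in the labels) is the same mutant with a transgene for the catalytic C-terminal part, and *dxo1*/*NTE* (DXO1-N/dxo1) is the mutant with a transgene for the N-terminal extension alone. Both transgenes are driven by the DXO1 promoter, and both lines still carry the *dxo1* allele. *rnmt1-3* (rnmt1 in the labels) is a partial loss-of-function line of RNMT1, the methyltransferase that completes the 5′ cap of mRNA, and Col-0 is the wild type (WT). The comparisons ask how each genotype differed from WT, how each responded to ABA, and how far each transgene moved *dxo1*.

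Jasmonate is a stress hormone made from plastid lipids. In the plastid, a 13-lipoxygenase (LOX2, LOX3 or LOX4) oxygenates linolenic acid, AOS turns the product into an unstable allene oxide, and an allene oxide cyclase closes the ring. OPR3 then reduces the cyclic product in the peroxisome, where the side chain is shortened to jasmonic acid. The conjugate of jasmonic acid with isoleucine binds the receptor COI1, JAZ repressors are destroyed, and MYC transcription factors are freed. VSP1 and VSP2 encode acid phosphatase-like proteins that store nitrogen in leaves and act against insects, and both are standard readouts of the MYC branch. LOX2 and the other synthesis genes are themselves induced by jasmonate in Arabidopsis.

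The AOC genes and the VSP genes each lie side by side on a chromosome. AOC1, AOC2 and AOC3 follow each other on the plus strand of chromosome 3 (build TAIR10.1, RefSeq annotation) with gaps of 1330 and 1088 bases, and VSP2 and VSP1 lie on the minus strand of chromosome 5 with 5365 bases between them. Their coding sequences are 90.4% identical between VSP1 and VSP2 and 90.3% identical between AOC1 and AOC2, against 63.8% between LOX2 and LOX3. Every member is protein-coding, none overlaps another annotated gene, and none shares an exonic stretch of 100 bases with any other place in the genome. The sequences shown are the 300 bases before the annotated gene start of the 4 members on which the results turn: LOX2 and AOS, which catalyse neighbouring steps and differed in pattern, and the VSP pair. They come from the TAIR10.1 genome and are written 5′ to 3′ on the strand of the gene. Capitals mark the G-box CACGTG in AOS, and in VSP1 and VSP2 they mark the stretches of at least 12 bases that both share in the same order.
LOX2, chr3:16524945-16525244, plus strand: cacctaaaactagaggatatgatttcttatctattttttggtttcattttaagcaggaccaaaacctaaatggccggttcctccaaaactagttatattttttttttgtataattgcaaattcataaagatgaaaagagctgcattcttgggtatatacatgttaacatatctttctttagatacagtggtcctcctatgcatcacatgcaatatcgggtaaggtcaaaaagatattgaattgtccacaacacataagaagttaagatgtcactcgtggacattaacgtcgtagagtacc
AOS, chr5:17099596-17099895, minus strand: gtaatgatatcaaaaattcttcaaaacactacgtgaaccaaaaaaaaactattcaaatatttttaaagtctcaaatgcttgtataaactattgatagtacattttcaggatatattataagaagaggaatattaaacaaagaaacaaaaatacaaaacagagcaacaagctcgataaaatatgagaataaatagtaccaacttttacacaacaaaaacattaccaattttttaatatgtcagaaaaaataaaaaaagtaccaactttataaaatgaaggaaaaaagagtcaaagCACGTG
VSP1, chr5:8509202-8509501, minus strand: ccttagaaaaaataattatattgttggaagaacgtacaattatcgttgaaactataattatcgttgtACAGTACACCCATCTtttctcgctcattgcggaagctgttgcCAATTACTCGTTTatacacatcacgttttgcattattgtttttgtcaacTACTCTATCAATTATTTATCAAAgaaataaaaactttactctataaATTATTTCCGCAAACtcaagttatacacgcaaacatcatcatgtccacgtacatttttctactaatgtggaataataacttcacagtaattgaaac
VSP2, chr5:8502225-8502524, minus strand: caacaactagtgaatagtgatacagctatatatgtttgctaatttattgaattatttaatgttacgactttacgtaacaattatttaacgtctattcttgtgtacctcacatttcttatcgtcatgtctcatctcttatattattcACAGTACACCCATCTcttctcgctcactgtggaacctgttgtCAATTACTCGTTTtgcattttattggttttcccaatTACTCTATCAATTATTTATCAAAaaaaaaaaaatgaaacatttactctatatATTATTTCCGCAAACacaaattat
The shared stretches covered 66 of the 300 bases of each VSP window, and the longest had 23 bases. The G-box CACGTG, a letter pattern that MYC factors bind, was found on either strand in 1 of the 10 member windows (AOS). It was found in 7.09% of 27443 windows of the same length before annotated nuclear protein-coding genes. TGACG, the core letters bound by TGA factors, was found on either strand in 2 of 10 (LOX4 and VSP2), against 21.3% of all windows. GCCGCC, the core of the ethylene-responsive GCC box, was found on either strand in 0 of 10, against 2.26% of all windows. A match describes the sequence only.

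Total counts ran between 17961410 and 23249299 per library, and all 10 members passed the filter on low counts in every comparison. VSP2 was the member with the fewest reads, with 7 to 181 counts per library, followed by LOX4 with 41 to 172 and VSP1 with 50 to 202, so small differences in these 3 genes were not detectable at this depth. Replicate 1 of WT mock stood apart from its group: the common dispersion of WT mock was 0.04, against 0.00386 to 0.0102 in the other 9 groups, and 0.00491 without that library. Counts called against WT mock are therefore also given without it. The share of all genes called without it is not given, so those counts have no background beside them. DXO1 transcripts were lower in *dxo1* than in WT (log2 fold change -1.17 after ABA and -1.09 under mock), with reads still present. Both transgene lines lay above WT for DXO1, at 2.65 after ABA and 2.33 under mock in *dxo1*/*cDXO1* and at 2.55 and 2.39 in *dxo1*/*NTE*, all called, and the count of the gene does not separate the part that a transgene carries. RNMT1 was higher than in WT in *dxo1*/*NTE* after ABA (1.18, edgeR, adjusted p = 0.0197). Of DXO1 and RNMT1, DESeq2 called only 1 in that comparison, and under mock RNMT1 was not called in *dxo1*/*NTE*. RNMT1 in *rnmt1-3* under mock differed from WT by -0.38 (edgeR, adjusted p = 0.0767), which did not pass the test. P-values measure the spread among these libraries, which the study calls biological replicates. In RNA from whole seedlings, fewer cells of a type and less RNA per cell cannot be told apart.

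AOC2 was the most abundant member, with a mean of 117 TPM over the 30 libraries (a share of all transcripts scaled by gene length, computed from counts and the deposited lengths). AOS had 59.9 TPM, LOX2 50.5, OPR3 32.3, AOC1 18.2 and AOC3 17.3. VSP1 with 6.005 TPM, LOX3 with 3.69, VSP2 with 2.74 and LOX4 with 2.66 were the 4 lowest. The lowest members did not vary alike between groups: the highest group mean was 11.3 times the lowest for VSP2 and 2.98 times for VSP1, but 1.66 times for LOX3. Among the abundant members, LOX2 varied 3.38-fold between group means, AOC2 1.99-fold and AOS 1.24-fold.

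**Figure D1:**
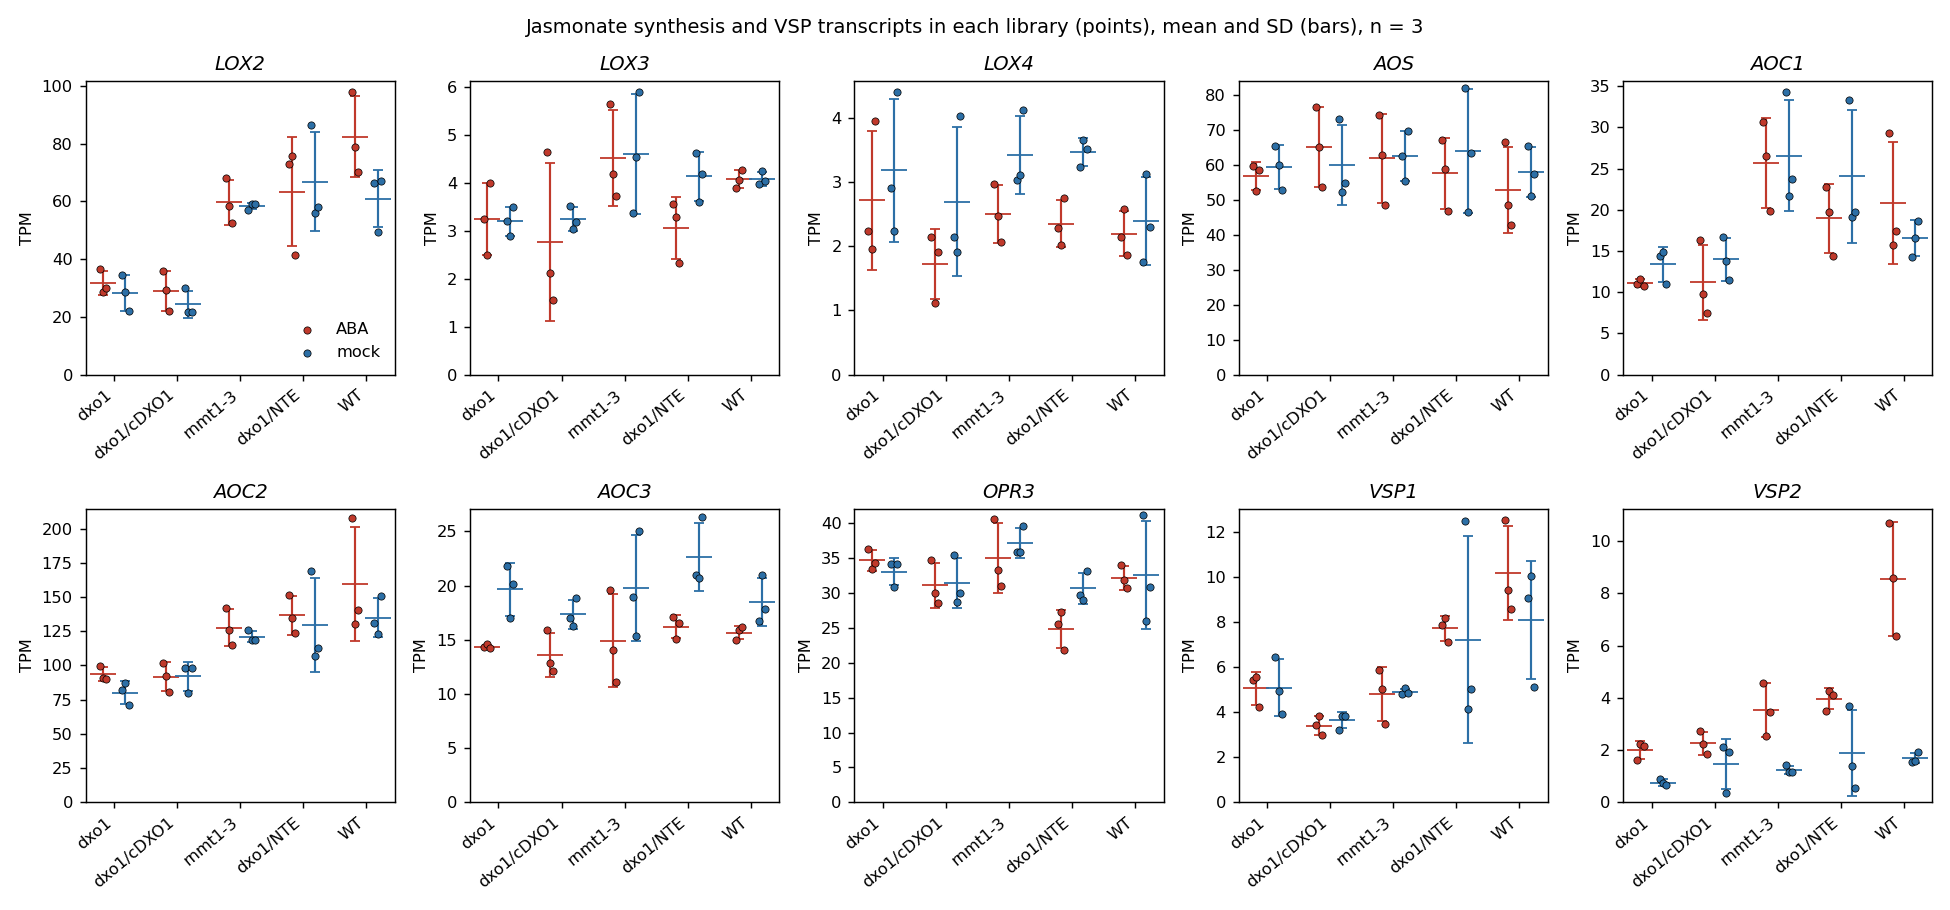
Level of each of the 10 genes in TPM (linear axes starting at 0), with genotypes along the axis and ABA (red) left of mock (blue) in each; points are libraries, lines the group mean and bars 1 SD (n = 3). LOX2 and AOC2 lie lower in the 4 groups of *dxo1* and *dxo1*/*cDXO1* than in the other 6 groups, AOS lies level, and VSP2 is highest in WT ABA.

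After ABA, 5 of the 10 genes were lower in *dxo1* than in WT: LOX2, AOC1, AOC2, VSP1 and VSP2. None was higher, 43.7% of all tested genes differed in this comparison, and 21.2% were lower. In *dxo1*/*cDXO1* the same 5 genes were lower and AOS was higher, 6 of 10 beside 45.4% of all genes. In *rnmt1-3* after ABA, VSP1 and VSP2 were lower, 2 of 10 beside 36.3% of all genes (16.6% lower). In *dxo1*/*NTE* after ABA only VSP2 passed the test and was lower, 1 of 10 beside 8.00% of all genes (3.38% lower). With higher and lower calls pooled, the shares of members called in *dxo1* and *dxo1*/*cDXO1* were close to those of all genes. By direction, 5 of 10 members were lower in each of these genotypes, beside 21.2% of all genes in *dxo1* and 21.8% in *dxo1*/*cDXO1*. Higher than in WT were 0 of 10 in *dxo1* beside 22.6% of all genes, and 1 of 10 in *dxo1*/*cDXO1* beside 23.6%. This difference in direction was not tested. The count in *rnmt1-3* was 5 without the filter on low counts and 2 to 5 with 1 library left out, and no order against the background is read from it. The 10 genes had a median log2 fold change of -0.49 (*dxo1*), -0.52 (*dxo1*/*cDXO1*), 0.17 (*rnmt1-3*) and -0.26 (*dxo1*/*NTE*), and all tested genes together had a median between -0.01 and 0.00. A gene counts as called at an adjusted p under 0.05 in edgeR's quasi-likelihood test, adjusted by Benjamini-Hochberg over every gene tested, and all adjusted p-values below are of this kind unless another tool is named. The 4 comparisons with WT share its libraries and are not independent of each other.

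Under mock, LOX2, AOC2 and VSP2 were lower in *dxo1* than in WT, 3 of 10 beside 24.8% of all genes (11.8% lower). LOX2, AOC2 and VSP1 were lower in *dxo1*/*cDXO1*, again 3 of 10 beside 23.6% of all genes (11.4% lower). In *rnmt1-3* the single call was AOC1, which was higher, 1 of 10 beside 18.8% of all genes (10.1% higher). In *dxo1*/*NTE* the edgeR test called 0 of 10 beside 1.60% of all genes, with 0 at an unadjusted p under 0.05 and 0 by DESeq2. Without WT mock replicate 1 the test called 3 members in *dxo1* and 3 in *dxo1*/*cDXO1*, with 3 in *rnmt1-3* and 0 in *dxo1*/*NTE*. The additional calls in *rnmt1-3* were AOS (0.30, adjusted p = 0.0212) and OPR3 (0.48, adjusted p = 0.00156), both higher than in WT.

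**Figure D2:**
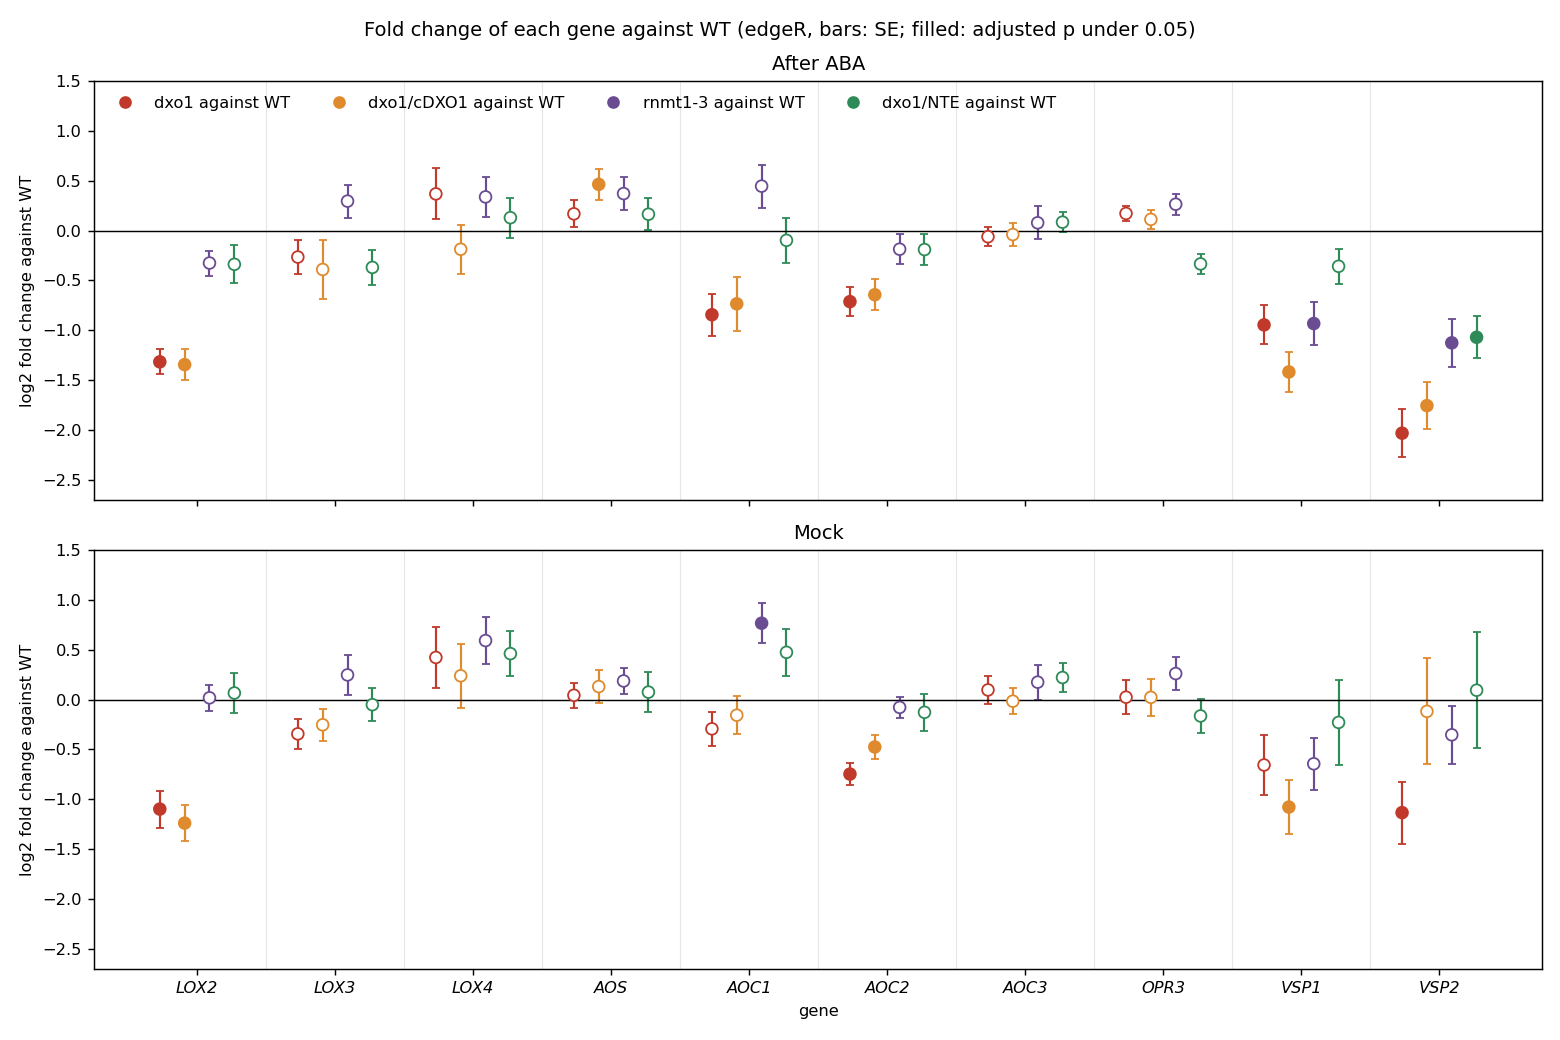
Log2 fold change of each gene in *dxo1*, *dxo1*/*cDXO1*, *rnmt1-3* and *dxo1*/*NTE* against WT, with ABA in the upper panel and mock in the lower; bars are 1 SE and filled points have an adjusted p under 0.05 (edgeR). LOX2 is below 0 by more than 1 log2 unit in *dxo1* and *dxo1*/*cDXO1* in both panels, and VSP2 after ABA is below 0 in all 4 genotypes.

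LOX2 encodes the lipoxygenase that makes most of the leaf jasmonate. After ABA it had 36.4, 28.6 and 30.1 TPM in *dxo1* and 35.9, 29.2 and 22.0 TPM in *dxo1*/*cDXO1*, against 97.8, 78.9 and 70.4 TPM in WT. It had 68.1, 58.4 and 52.5 TPM in *rnmt1-3* and 73.0, 75.7 and 41.6 TPM in *dxo1*/*NTE*. Every *dxo1* and *dxo1*/*cDXO1* library lay below every WT library, the *rnmt1-3* libraries also lay below WT, and those of *dxo1*/*NTE* overlapped WT. The log2 fold change against WT after ABA was -1.32 ± 0.12 (SE) in *dxo1*, 40.1% of the WT level (edgeR, adjusted p = 3.57e-06). It was -1.34 ± 0.16 in *dxo1*/*cDXO1* (edgeR, adjusted p = 1.44e-05). In *rnmt1-3* it was -0.33 ± 0.13 and missed the threshold (edgeR, adjusted p = 0.0578), but passed by DESeq2 (adjusted p = 0.0272). It also passed without WT ABA replicate 2 or 3 or *rnmt1-3* ABA replicate 1, at -0.37 to -0.45, and without the filter on low counts (edgeR, adjusted p = 0.0222). In *dxo1*/*NTE* it was -0.34 ± 0.19 (edgeR, adjusted p = 0.316). With a term for the replicate number LOX2 was called in *rnmt1-3* (-0.32, edgeR, adjusted p = 0.000571) and in *dxo1*/*NTE* (-0.37, edgeR, adjusted p = 0.00828).

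Under mock, LOX2 had 34.4, 28.5 and 21.9 TPM in *dxo1* and 29.9, 21.7 and 21.7 TPM in *dxo1*/*cDXO1*, against 66.2, 49.5 and 67.0 TPM in WT. It had 57.2, 59.1 and 59.2 TPM in *rnmt1-3* and 86.6, 56.0 and 58.1 TPM in *dxo1*/*NTE*, both overlapping WT. The fall in *dxo1* was -1.10 ± 0.19 on the log2 scale, 46.7% of WT (edgeR, adjusted p = 0.00486), and that in *dxo1*/*cDXO1* was -1.24 ± 0.18 (edgeR, adjusted p = 0.0022). LOX2 in *rnmt1-3* differed from WT by 0.02, with a 95% interval of -0.35 to 0.38, and in *dxo1*/*NTE* by 0.07, with an interval of -0.48 to 0.62. In the order of the 10 group means, the only gap between neighbours whose libraries do not overlap lay between the 4 groups of *dxo1* and *dxo1*/*cDXO1* and the 6 other groups. LOX2 passed the test in both genotypes and both treatments under every alternative tried.

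LOX3 and LOX4 encode the other 13-lipoxygenases of the set, and both were called in no comparison with WT. After ABA, LOX3 had 3.25, 2.49 and 3.98 TPM in *dxo1*, 4.63, 2.11 and 1.55 TPM in *dxo1*/*cDXO1*, 5.63, 4.17 and 3.72 TPM in *rnmt1-3* and 3.56, 3.29 and 2.33 TPM in *dxo1*/*NTE*, against 3.89, 4.05 and 4.27 TPM in WT. Replicate 1 of *dxo1*/*cDXO1* ABA lay apart for this gene: without it the log2 fold change against WT was -1.0 and passed the test (edgeR, adjusted p = 0.00227). LOX4 ran between 1.11 and 4.40 TPM over all libraries, and neighbouring groups in its order overlapped throughout. Its log2 fold change under mock was 0.42 in *dxo1*, 0.59 in *rnmt1-3* and 0.46 in *dxo1*/*NTE*, none past the threshold. The share of LOX2 in the summed LOX2, LOX3 and LOX4 level after ABA was 84.2% in *dxo1* and 86.9% in *dxo1*/*cDXO1*, with 89.5% in *rnmt1-3* and 91.7% in *dxo1*/*NTE*, against 92.8% in WT. Under mock it was 81.1% in *dxo1* and 80.2% in *dxo1*/*cDXO1*, with 88.0% in *rnmt1-3* and 89.5% in *dxo1*/*NTE*, against 90.2% in WT.

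AOS encodes the enzyme that acts on the lipoxygenase product, and its group means varied least of the 10 genes. After ABA it had 59.7, 52.4 and 58.4 TPM in *dxo1*, 76.7, 65.2 and 53.7 TPM in *dxo1*/*cDXO1*, 74.3, 62.7 and 48.7 TPM in *rnmt1-3* and 67.1, 58.9 and 47.0 TPM in *dxo1*/*NTE*, against 66.6, 48.7 and 43.0 TPM in WT. All 4 genotypes overlapped WT. In *dxo1*/*cDXO1* it passed the test and was higher than in WT (0.46 ± 0.16, edgeR, adjusted p = 0.0262), a call that DESeq2 did not make (adjusted p = 0.176) and that did not pass with the spread of all 30 libraries (adjusted p = 0.0636). It was lost without WT ABA replicate 2 or 3 or *dxo1*/*cDXO1* ABA replicate 1 or 2, at 0.32 to 0.46 (edgeR, adjusted p = 0.0644 to 0.151), while without WT ABA replicate 1 AOS was called higher in *dxo1* (0.40, adjusted p = 0.000433) and in *rnmt1-3* (0.60, adjusted p = 0.000950). In *rnmt1-3* it was 0.37 with all libraries (edgeR, adjusted p = 0.0983), and was also called without *rnmt1-3* ABA replicate 3 (0.52, edgeR, adjusted p = 0.0317). Under mock, group means ran between 58.0 TPM in WT and 64.0 TPM in *dxo1*/*NTE*, and *dxo1* differed from WT by 0.04 on the log2 scale (edgeR, adjusted p = 0.831).

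The ratio of LOX2 to AOS levels within a library set these neighbouring steps side by side. After ABA it was 0.557 ± 0.0484 in *dxo1* and 0.442 ± 0.0302 in *dxo1*/*cDXO1*, with 0.975 ± 0.0895 in *rnmt1-3* and 1.09 ± 0.199 in *dxo1*/*NTE*, against 1.58 ± 0.0937 in WT (SD, n = 3 each). Under mock it was 0.472 ± 0.056 in *dxo1* and 0.406 ± 0.00979 in *dxo1*/*cDXO1*, with 0.942 ± 0.112 in *rnmt1-3* and 1.06 ± 0.143 in *dxo1*/*NTE*, against 1.05 ± 0.106 in WT. The ratio in every *dxo1* and *dxo1*/*cDXO1* library lay below that in every library of the other 3 genotypes, at 0.395 to 0.610 against 0.848 to 1.64, and after ABA all 4 genotypes lay below WT. Over the 30 libraries, deviations of LOX2 and AOS from their group means followed each other (r = 0.849), while their levels without that centring did so little (r = 0.170). Libraries of a group share genotype and treatment, so both values are descriptions.

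**Figure D3:**
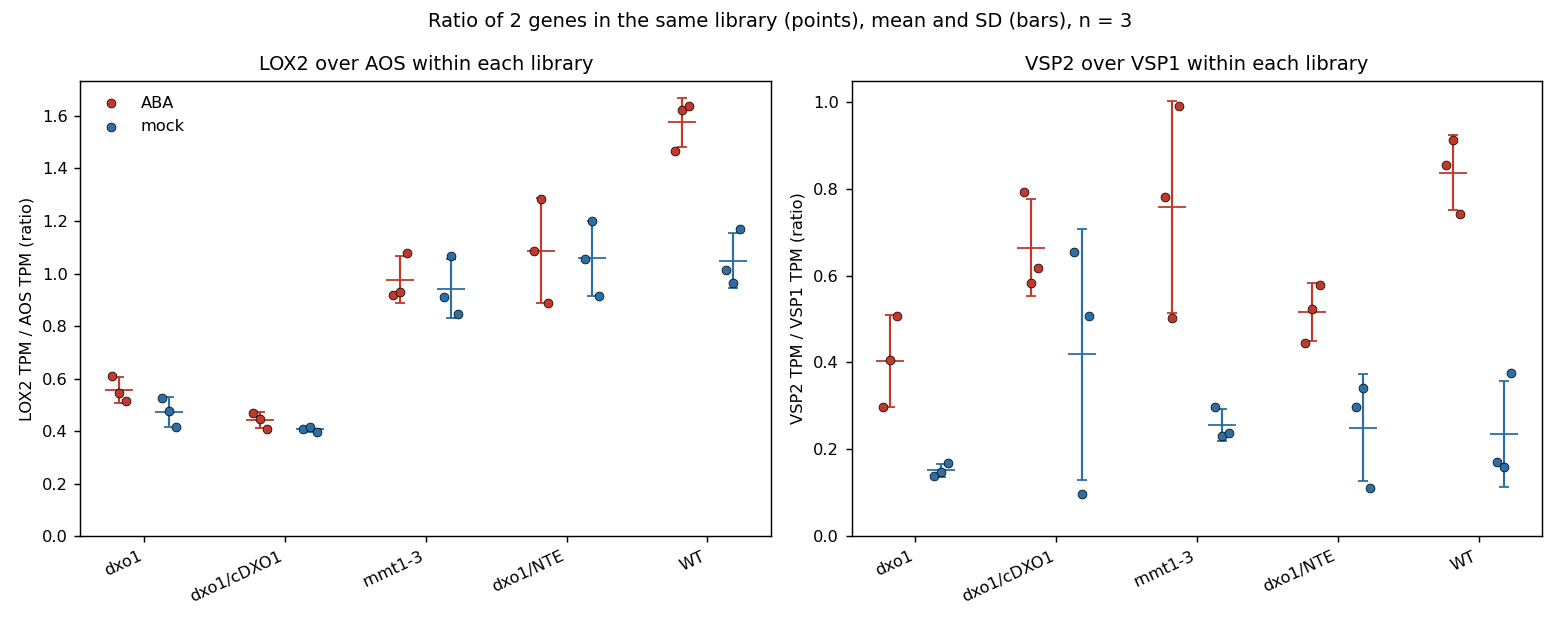
Ratio of LOX2 to AOS level and of VSP2 to VSP1 level in each library, with genotypes along the axis and ABA (red) left of mock (blue); points are libraries, and lines and bars the mean and SD of 3. LOX2 over AOS averages 0.557 in *dxo1* ABA and 0.442 in *dxo1*/*cDXO1* ABA, against 1.58 in WT ABA; VSP2 over VSP1 averages 0.404 in *dxo1* ABA, against 0.837 in WT ABA.

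AOC2, the most abundant of the cyclase genes, followed LOX2. After ABA it had 99.3, 91.0 and 90.2 TPM in *dxo1* and 101.9, 92.4 and 80.6 TPM in *dxo1*/*cDXO1*, against 207.6, 130.4 and 140.5 TPM in WT. It had 141.7, 125.6 and 115.0 TPM in *rnmt1-3* and 151.4, 134.9 and 123.5 TPM in *dxo1*/*NTE*, both overlapping WT. All *dxo1* and *dxo1*/*cDXO1* libraries were below all WT libraries. The log2 fold change was -0.71 ± 0.15 in *dxo1* (edgeR, adjusted p = 0.00167) and -0.64 ± 0.15 in *dxo1*/*cDXO1* (edgeR, adjusted p = 0.00383). Under mock, AOC2 had 82.4, 86.8 and 70.8 TPM in *dxo1* and 97.9, 79.8 and 98.3 TPM in *dxo1*/*cDXO1*, against 131.1, 123.2 and 150.6 TPM in WT, again with no overlap. The log2 fold changes under mock were -0.75 ± 0.11 in *dxo1* (edgeR, adjusted p = 0.00314) and -0.48 ± 0.12 in *dxo1*/*cDXO1* (edgeR, adjusted p = 0.0251). The call in *dxo1*/*cDXO1* under mock was lost without WT mock replicate 3 or any single *dxo1*/*cDXO1* library, at -0.37 to -0.54 (edgeR, adjusted p = 0.0562 to 0.118). As for LOX2, the 4 groups of these 2 genotypes lay below the other 6 with no overlap at the boundary.

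AOC1, the near copy of AOC2, gave a different order. After ABA it had 11.0, 11.7 and 10.8 TPM in *dxo1*, 16.3, 9.77 and 7.47 TPM in *dxo1*/*cDXO1*, 30.7, 26.5 and 19.8 TPM in *rnmt1-3* and 22.8, 19.7 and 14.4 TPM in *dxo1*/*NTE*, against 29.3, 15.7 and 17.4 TPM in WT. It was lower than in WT in *dxo1* (-0.84 ± 0.21, edgeR, adjusted p = 0.00568), where no library overlapped WT. It was also lower in *dxo1*/*cDXO1* (-0.73 ± 0.27, edgeR, adjusted p = 0.0413), a call that DESeq2 did not make (adjusted p = 0.196) and that was lost without WT ABA replicate 1, its highest library (-0.38), or *dxo1*/*cDXO1* ABA replicate 2 (-0.65) or 3 (-0.50). Without WT ABA replicate 1 AOC1 was called higher in *rnmt1-3* than in WT (0.79, edgeR, adjusted p = 0.000550). Under mock, AOC1 had 34.2, 21.7 and 23.7 TPM in *rnmt1-3*, against 14.3, 16.6 and 18.7 TPM in WT, and was higher in *rnmt1-3* (0.77 ± 0.20, edgeR, adjusted p = 0.0306). The difference between *rnmt1-3* and WT under mock did not pass without WT mock replicate 2 or *rnmt1-3* mock replicate 1 or 3, at 0.52 to 0.86 (edgeR, adjusted p = 0.0612 to 0.0958). In *dxo1* under mock AOC1 had 14.4, 14.9 and 11.0 TPM, and the change of -0.29 did not pass (edgeR, adjusted p = 0.235).

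AOC3 and OPR3 were called in no comparison with WT by the edgeR test. AOC3 ran between 11.1 and 26.3 TPM over the 30 libraries, with 14.3, 14.6 and 14.2 TPM in *dxo1* and 14.95, 15.9 and 16.1 TPM in WT after ABA. AOC2 made up 78.6% of the summed level of the 3 cyclase genes in *dxo1* and 78.9% in *dxo1*/*cDXO1* after ABA, with 76.1% in *rnmt1-3* and 79.6% in *dxo1*/*NTE*, against 81.2% in WT. Under mock these shares were 70.7% in *dxo1* and 74.5% in *dxo1*/*cDXO1*, with 72.4% in *rnmt1-3* and 73.2% in *dxo1*/*NTE*, against 79.3% in WT. The mean share was thus below WT in all 4 genotypes. OPR3, whose enzyme acts in the peroxisome, had its lowest level in *dxo1*/*NTE* after ABA, with 25.5, 27.2 and 21.8 TPM, against 34.0, 31.8 and 30.7 TPM in WT. Those groups did not overlap, but the log2 fold change of -0.33 ± 0.10 missed the threshold (edgeR, adjusted p = 0.0611). It passed with a term for the replicate number (-0.34, edgeR, adjusted p = 0.0104) and without the filter on low counts (-0.33, edgeR, adjusted p = 0.0405). These settings also called OPR3 higher than in WT in *rnmt1-3* after ABA (0.26, edgeR, adjusted p = 0.0154, and 0.27, edgeR, adjusted p = 0.0454). Without WT ABA replicate 1 OPR3 was called higher than in WT in *dxo1* (0.23, edgeR, adjusted p = 0.0298) and in *rnmt1-3* (0.32, edgeR, adjusted p = 0.0239), and in *rnmt1-3* also without *rnmt1-3* ABA replicate 3 (0.35, edgeR, adjusted p = 0.0339).

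VSP2 showed the largest differences of the set. After ABA it had 1.61, 2.25 and 2.14 TPM in *dxo1* and 2.72, 2.23 and 1.84 TPM in *dxo1*/*cDXO1*, against 10.7, 8.59 and 6.36 TPM in WT. It had 4.59, 2.54 and 3.46 TPM in *rnmt1-3* and 3.51, 4.28 and 4.11 TPM in *dxo1*/*NTE*. Every library of all 4 genotypes lay below every WT library after ABA. The log2 fold change was -2.03 ± 0.24 in *dxo1*, 24.4% of WT (edgeR, adjusted p = 2.46e-05), and -1.76 ± 0.24 in *dxo1*/*cDXO1* (edgeR, adjusted p = 4.97e-05). It was -1.13 ± 0.24 in *rnmt1-3* (edgeR, adjusted p = 0.00294) and -1.07 ± 0.21 in *dxo1*/*NTE* (edgeR, adjusted p = 0.00843). In *dxo1*/*NTE* it did not pass when the spread was estimated from all 30 libraries (adjusted p = 0.0751).

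Under mock, VSP2 was near the low end of detection, with 7 to 68 counts per library. It had 0.894, 0.726 and 0.655 TPM in *dxo1*, against 1.55, 1.59 and 1.91 TPM in WT, and the log2 fold change was -1.13 ± 0.31 (edgeR, adjusted p = 0.0315). That call held without WT mock replicate 1 and was lost without any other single library, at -1.04 to -1.28 (edgeR, adjusted p = 0.0687 to 0.113). It was also lost with the spread of all 30 libraries (edgeR, adjusted p = 0.0722). In *dxo1*/*cDXO1* the mock libraries were far apart, with 2.105, 0.371 and 1.94 TPM, as were those of *dxo1*/*NTE* with 3.71, 1.41 and 0.554 TPM, and both overlapped WT. VSP2 in *rnmt1-3* under mock had 1.43, 1.17 and 1.15 TPM, each below the WT libraries, and was not called.

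VSP1 had a higher mean level than VSP2 in every group and a smaller range between groups. After ABA it had 5.40, 5.55 and 4.21 TPM in *dxo1*, 3.43, 3.82 and 2.97 TPM in *dxo1*/*cDXO1* and 5.87, 5.04 and 3.49 TPM in *rnmt1-3*, against 12.5, 9.41 and 8.56 TPM in WT. These 3 genotypes did not overlap WT. The log2 fold change was -0.95 ± 0.20 in *dxo1* (edgeR, adjusted p = 0.00171), -1.42 ± 0.20 in *dxo1*/*cDXO1* (edgeR, adjusted p = 7.75e-05) and -0.93 ± 0.22 in *rnmt1-3* (edgeR, adjusted p = 0.00436). In *dxo1*/*NTE* after ABA VSP1 had 7.88, 8.18 and 7.11 TPM, all below WT, and was not called (-0.36, edgeR, adjusted p = 0.247). Under mock, VSP1 had 3.22, 3.85 and 3.83 TPM in *dxo1*/*cDXO1*, against 9.07, 10.04 and 5.10 TPM in WT (-1.08 ± 0.27, edgeR, adjusted p = 0.0219). That call was lost without WT mock replicate 2 or any single *dxo1*/*cDXO1* library, at -0.90 to -1.11 (edgeR, adjusted p = 0.0702 to 0.0953), and without WT mock replicate 3 VSP1 was also called lower in *dxo1* (-0.90, adjusted p = 0.0446) and *rnmt1-3* (-0.89, adjusted p = 0.0253). Replicate 1 of *dxo1*/*NTE* mock was the highest of its group for LOX2, AOS, AOC1, AOC2, VSP1 and VSP2, with 12.5 TPM of VSP1 against 4.12 and 5.02 in the other libraries of that group.

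VSP2 rose after ABA in WT, *dxo1* and *rnmt1-3*, and was not called in *dxo1*/*cDXO1* or *dxo1*/*NTE*. In WT it had 10.7, 8.59 and 6.36 TPM after ABA, against 1.55, 1.59 and 1.91 TPM under mock, a 5.08-fold rise (log2 2.34 ± 0.26, edgeR, adjusted p = 0.000375). It was the single member called in WT, 1 of 10 beside 16.5% of all genes (10.05% higher). In *dxo1* VSP2 rose by 1.43 ± 0.34 (edgeR, adjusted p = 0.00459) and AOC2 rose by 0.27 ± 0.07 (edgeR, adjusted p = 0.0132), while AOC3 fell by 0.41 ± 0.11 on the log2 scale (edgeR, adjusted p = 0.00896). These made 3 of 10 in *dxo1* beside 25.9% of all genes. The AOC2 call was lost without *dxo1* mock replicate 3 (0.18) or *dxo1* ABA replicate 1 (0.22), and the AOC3 call without *dxo1* mock replicate 1 (-0.32), where LOX2 was called (0.38). Neither call passed with the spread of all 30 libraries (adjusted p = 0.303 for AOC2 and 0.0785 for AOC3). In *rnmt1-3* VSP2 alone was called (1.55 ± 0.29, edgeR, adjusted p = 0.000772), 1 of 10 beside 26.1% of all genes (14.7% higher). The other members there lay between -0.39 (LOX4) and 0.13 (AOC2) on the log2 scale.

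In *dxo1*/*cDXO1* the edgeR test called 0 of 10 members after ABA against mock beside 24.4% of all genes, with 1 at an unadjusted p under 0.05 (AOC3) and 0 by DESeq2. VSP2 there differed by 0.68 ± 0.43 (edgeR, adjusted p = 0.297). Without *dxo1*/*cDXO1* ABA replicate 1, LOX3 (-0.77), AOC1 (-0.65) and AOC3 (-0.42) were called lower. LOX2 was called higher without *dxo1*/*cDXO1* mock replicate 1 (0.51, edgeR, adjusted p = 0.0198) or ABA replicate 3 (0.48, edgeR, adjusted p = 0.0244), against 0.31 with all libraries, and AOS without mock replicate 1 (0.37, edgeR, adjusted p = 0.0279). In *dxo1*/*NTE* the single call was AOC3, which was lower after ABA (-0.39 ± 0.12, edgeR, adjusted p = 0.0233), 1 of 10 beside 28.8% of all genes (13.4% lower). VSP2 in *dxo1*/*NTE* differed by 1.17 ± 0.44 (edgeR, adjusted p = 0.0588). That value passed by DESeq2 (adjusted p = 0.0373) and without the filter on low counts (edgeR, adjusted p = 0.0166). It also passed with the spread of all 30 libraries (edgeR, adjusted p = 0.0342) and with a term for the replicate number (edgeR, adjusted p = 0.0116). Without *dxo1*/*NTE* mock replicate 1, its highest library, the same value was 2.15 and passed (edgeR, adjusted p = 0.000349), as did AOC2 (0.43) and VSP1 (0.86). The AOC3 call in *dxo1*/*NTE* was lost without mock replicate 3 (-0.26) or ABA replicate 2 (-0.33) and with the spread of all 30 libraries (-0.40, adjusted p = 0.0652), and LOX4 was called lower without ABA replicate 3 (-0.58, edgeR, adjusted p = 0.0398). The log2 fold change of AOC3 was below 0 in every genotype, with -0.28 in *dxo1*/*cDXO1*, -0.35 in *rnmt1-3* and -0.24 in WT, none of these past the threshold. Without *rnmt1-3* ABA replicate 1 the value in *rnmt1-3* was -0.61 and passed (edgeR, adjusted p = 0.0187). LOX2 in WT differed between ABA and mock by 0.44 ± 0.17 (edgeR, adjusted p = 0.128), and by 0.52 without WT mock replicate 1, which passed (edgeR, adjusted p = 0.0335).

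Whether a genotype changed the ABA response was tested as an interaction over 12 libraries, and no member was called in any genotype. For *dxo1* the edgeR test called 0 of 10 beside 0.272% of all genes, with 1 at an unadjusted p under 0.05 (VSP2) and 0 by DESeq2. For *dxo1*/*cDXO1* it called 0 of 10 beside 0.233%, with 1 at an unadjusted p under 0.05 (VSP2) and 0 by DESeq2. For *rnmt1-3* it called 0 of 10 beside 0.126%, and for *dxo1*/*NTE* 0 of 10 beside 0% of all genes, with 0 at an unadjusted p under 0.05 and 0 by DESeq2 in both. The VSP2 interaction was -0.89 ± 0.40 in *dxo1* (edgeR, adjusted p = 0.479), -1.67 ± 0.58 in *dxo1*/*cDXO1* (edgeR, adjusted p = 0.356), -0.78 ± 0.40 in *rnmt1-3* (edgeR, adjusted p = 0.703) and -1.17 ± 0.62 in *dxo1*/*NTE* (edgeR, adjusted p = 0.476). All 4 estimates were below 0 and none passed, with mock counts of VSP2 of 7 to 68 per library. The ratio of VSP2 to VSP1 level after ABA was 0.404 ± 0.105 in *dxo1* and 0.665 ± 0.112 in *dxo1*/*cDXO1*, with 0.758 ± 0.245 in *rnmt1-3* and 0.515 ± 0.0666 in *dxo1*/*NTE*, against 0.837 ± 0.0864 in WT (SD, n = 3 each). Under mock it was 0.151 ± 0.0151 in *dxo1* and 0.419 ± 0.289 in *dxo1*/*cDXO1*, with 0.256 ± 0.0369 in *rnmt1-3* and 0.2497 ± 0.123 in *dxo1*/*NTE*, against 0.235 ± 0.121 in WT, so only the *dxo1* mean lay below WT there.

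The transgenes were compared with *dxo1* to see how far each part of DXO1 moved the set. After ABA, 5 members were higher in *dxo1*/*NTE* than in *dxo1* (LOX2, AOC1, AOC2, VSP1 and VSP2) and OPR3 was lower, 6 of 10 beside 35.8% of all genes. LOX2 was higher by 0.98 ± 0.17 (edgeR, adjusted p = 0.000334), AOC1 by 0.75 ± 0.16 (edgeR, adjusted p = 0.00164) and AOC2 by 0.53 ± 0.08 (edgeR, adjusted p = 0.000116). VSP2 was higher by 0.97 ± 0.23 (edgeR, adjusted p = 0.00441) and VSP1 by 0.59 ± 0.18 (edgeR, adjusted p = 0.0156), and neither VSP call passed with the spread of all 30 libraries (adjusted p = 0.0806 for VSP2 and 0.143 for VSP1). VSP1 was also lost without *dxo1* ABA replicate 3 (0.47) or *dxo1*/*NTE* ABA replicate 2 (0.55). OPR3 was at -0.50 ± 0.09 (edgeR, adjusted p = 0.000546). Under mock, LOX2 (1.16 ± 0.18, edgeR, adjusted p = 0.000378), AOC1 (0.77 ± 0.21, edgeR, adjusted p = 0.0139) and AOC2 (0.62 ± 0.15, edgeR, adjusted p = 0.00752) were higher in *dxo1*/*NTE*, 3 of 10 beside 32.6% of all genes (14.8% higher). VSP2 under mock was called without *dxo1*/*NTE* mock replicate 3 alone (1.67, edgeR, adjusted p = 0.0163), against 1.22 ± 0.57 with it (edgeR, adjusted p = 0.121).

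Between *dxo1*/*cDXO1* and *dxo1*, by contrast, the edgeR test called no member. After ABA it called 0 of 10 beside 6.10% of all genes, with 3 at an unadjusted p under 0.05 (LOX4, AOS and VSP1) and 0 by DESeq2. LOX2 differed by -0.04, with a 95% interval of -0.37 to 0.30. AOS differed by 0.29 ± 0.09 (edgeR, adjusted p = 0.0743), which passed without the filter on low counts (adjusted p = 0.000867) and without *dxo1*/*cDXO1* ABA replicate 3 (0.42, adjusted p = 0.00102). Under mock it called 0 of 10 beside 0.857% of all genes, with 1 at an unadjusted p under 0.05 (AOC2) and 0 by DESeq2. LOX2 differed by -0.14, with a 95% interval of -0.58 to 0.30, and AOC2 by 0.27 ± 0.10 (edgeR, adjusted p = 0.234). Same-numbered libraries of these 2 mock groups deviated together, and with a term for the replicate number AOC2 was called (0.27, edgeR, adjusted p = 0.0300).

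*rnmt1-3* was set against *dxo1* after the values had been seen. After ABA, LOX2 (0.98 ± 0.09, edgeR, adjusted p = 4.91e-07), AOC1 (1.28 ± 0.14, edgeR, adjusted p = 3.35e-06), AOC2 (0.52 ± 0.07, edgeR, adjusted p = 4.28e-05), LOX3 and VSP2 were higher in *rnmt1-3*, 5 of 10 beside 27.0% of all genes (13.6% higher). Under mock, LOX2 (1.11 ± 0.12, edgeR, adjusted p = 5.33e-05), AOC1 (1.06 ± 0.17, edgeR, adjusted p = 0.00109), AOC2 (0.67 ± 0.08, edgeR, adjusted p = 0.000102), LOX3 and OPR3 were higher, 5 of 10 beside 20.2% of all genes (9.95% higher). With the spread of all 30 libraries LOX3, OPR3 and VSP2 were no longer called, and LOX2, AOC1 and AOC2 were. OPR3 was lost without any single library (0.18 to 0.27), and VSP2 without *dxo1* ABA replicate 1 (0.76) or *rnmt1-3* ABA replicate 1 (0.64). LOX3 was lost without *dxo1* replicate 1 or 2 in either treatment, *rnmt1-3* mock replicate 2 or 3 or *rnmt1-3* ABA replicate 1, at 0.34 to 0.60. VSP1, LOX4, AOS and AOC3 were called in neither treatment, at 0.01, -0.04, 0.20 and 0.13 after ABA and 0.01, 0.17, 0.14 and 0.08 under mock. AOS was called after ABA without *rnmt1-3* ABA replicate 3 (0.35, edgeR, adjusted p = 0.00311).

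The rest of the pathway was read from lists of other jasmonate genes. Of 14 tested genes in other synthesis steps, 3 were higher and 9 lower in *dxo1* than in WT after ABA, 3 higher and 9 lower in *dxo1*/*cDXO1*, and 3 higher and 6 lower in *rnmt1-3*. In *dxo1*/*NTE* after ABA 1 of the 14 was called, and it was lower. Of all tested genes after ABA, 22.6% were higher and 21.2% lower in *dxo1*, and 23.6% were higher and 21.8% lower in *dxo1*/*cDXO1*. In *rnmt1-3* 19.7% were higher and 16.6% lower, and in *dxo1*/*NTE* 4.62% were higher and 3.38% lower. Under mock these shares were 13.0% higher and 11.8% lower in *dxo1*, 12.1% and 11.4% in *dxo1*/*cDXO1*, 10.1% and 8.76% in *rnmt1-3*, and 0.850% and 0.755% in *dxo1*/*NTE*. They are the background for the counts with all libraries in every list that follows, and the lists were not tested as sets. They do not apply to the counts without WT mock replicate 1. FAD3, a desaturase that makes linolenic acid, was at -1.03 in *dxo1* and -1.02 in *dxo1*/*cDXO1*, with -0.73 in *rnmt1-3* and -0.51 in *dxo1*/*NTE* on the log2 scale after ABA, and passed the test in each. Under mock, 2 of the 14 were higher and 5 lower in *dxo1*, 5 were lower in *dxo1*/*cDXO1*, and 1 was higher and 3 lower in *rnmt1-3*. AIM1 and KAT2, which shorten the side chain in the peroxisome, were at -0.78 and -0.63 in *dxo1* under mock. In *dxo1*/*NTE* under mock the edgeR test called 0 of 14, with 1 at an unadjusted p under 0.05 and 0 by DESeq2. Without WT mock replicate 1, 2 of the 14 were higher and 9 lower in *dxo1* under mock, 1 higher and 7 lower in *dxo1*/*cDXO1*, 1 higher and 8 lower in *rnmt1-3*, and 2 lower in *dxo1*/*NTE*.

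Genes that jasmonate signalling switches on were read from a list for each of its branches. Of 6 tested genes of the MYC branch, 1 was higher and 5 lower in *dxo1* after ABA, 5 were lower in *dxo1*/*cDXO1*, 3 were lower in *rnmt1-3*, and 1 was higher and 3 lower in *dxo1*/*NTE*. CORI3, a jasmonate-induced gene of the tyrosine aminotransferase family, averaged 9.43 TPM in *dxo1* and 6.50 in *dxo1*/*cDXO1*, with 20.5 in *rnmt1-3* and 26.1 in *dxo1*/*NTE*, against 56.4 TPM in WT after ABA. TAT3, a tyrosine aminotransferase, was higher than in WT after ABA, at 2.14 in *dxo1* and 2.52 in *dxo1*/*NTE* on the log2 scale. Under mock, 4 of the 6 were lower in *dxo1*, 4 in *dxo1*/*cDXO1* and 1 in *rnmt1-3*, and these 3 counts were the same without WT mock replicate 1. In *dxo1*/*NTE* under mock the edgeR test called 0 of 6, with 1 at an unadjusted p under 0.05 and 1 by DESeq2, and without WT mock replicate 1 it called 1 higher and 1 lower.

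Of 4 tested genes of the branch shared with ethylene, 3 were lower in *dxo1*, 4 in *dxo1*/*cDXO1* and 2 in *rnmt1-3* after ABA, and 1 was lower and 1 higher in *dxo1*/*NTE*. Under mock, 3 of the 4 were lower in *dxo1*, 3 in *dxo1*/*cDXO1* and 2 in *rnmt1-3*. Without WT mock replicate 1 these counts were the same, with 1 also higher in *rnmt1-3*. In *dxo1*/*NTE* under mock the edgeR test called 0 of 4 with or without that library, with 2 at an unadjusted p under 0.05 and 0 by DESeq2 with all libraries. PDF1.2, a defensin, averaged 1.64 TPM in *dxo1* and 0.552 in *dxo1*/*cDXO1*, with 5.04 in *rnmt1-3* and 26.7 in *dxo1*/*NTE*, against 16.1 TPM in WT after ABA. It was called lower than WT in the other 3 genotypes and higher in *dxo1*/*NTE*. Of 9 tested genes for jasmonate breakdown, 2 were higher and 2 lower in *dxo1* than in WT after ABA. CYP94B3, a cytochrome P450 that hydroxylates the active conjugate, averaged 37.3 TPM in *dxo1* and 36.1 TPM in *dxo1*/*cDXO1*, against 18.03 TPM in WT after ABA, and was called higher in both. IAR3, an amidohydrolase that splits the conjugate, was lower, at -0.90 in *dxo1* and -0.91 in *dxo1*/*cDXO1*.

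The JAZ genes, which encode the repressors, and COI1 were read in the same way. After ABA, 1 of 11 tested JAZ genes was higher and 2 lower in *dxo1*, 2 were lower in *dxo1*/*cDXO1*, 1 was higher and 1 lower in *rnmt1-3*, and 1 was lower in *dxo1*/*NTE*. Under mock the edgeR test called 0 of the 10 or 11 tested in each genotype, with 1 at an unadjusted p under 0.05 in *dxo1*, 1 in *rnmt1-3* and 0 in the other genotypes, and 0 by DESeq2 in all 4. The summed JAZ level in WT mock was 114.9 TPM in replicate 1 and 250.2 and 264.7 TPM in the other libraries, so that library sets the spread of this list. Without it, 2 JAZ genes were higher and 3 lower in *dxo1* under mock, 1 higher and 2 lower in *dxo1*/*cDXO1*, 1 higher and 1 lower in *rnmt1-3*, and 2 lower in *dxo1*/*NTE*. LOX2 with 66.2 TPM, AOC2 with 131.1 TPM and VSP1 with 9.07 TPM in that library lay between the other WT mock libraries, and VSP2 with 1.55 TPM lay just below them. OPR3 with 41.1 TPM and AOS with 65.3 TPM were highest in that library. LOX3 with 3.96 TPM, LOX4 with 1.75, AOC1 with 14.3 and AOC3 with 16.7 were lowest in it. COI1 was lower under mock, at -0.47 in *dxo1*, -0.54 in *dxo1*/*cDXO1* and -0.38 in *rnmt1-3*. Of 4 tested genes in the list of COI1 and MYC regulators, 1 was lower in *dxo1* under mock, 2 in *dxo1*/*cDXO1* and 1 in *rnmt1-3*. After ABA 1 of the 4 was lower in *dxo1*/*cDXO1*. The edgeR test then called 0 in *dxo1*, *rnmt1-3* and *dxo1*/*NTE*, so COI1 was not called there. At an unadjusted p under 0.05 these had 1, 3 and 0, and DESeq2 called 0 in each. MYC2 is listed at 0 in all 30 libraries, and its level was not tested.

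**Figure D4:**
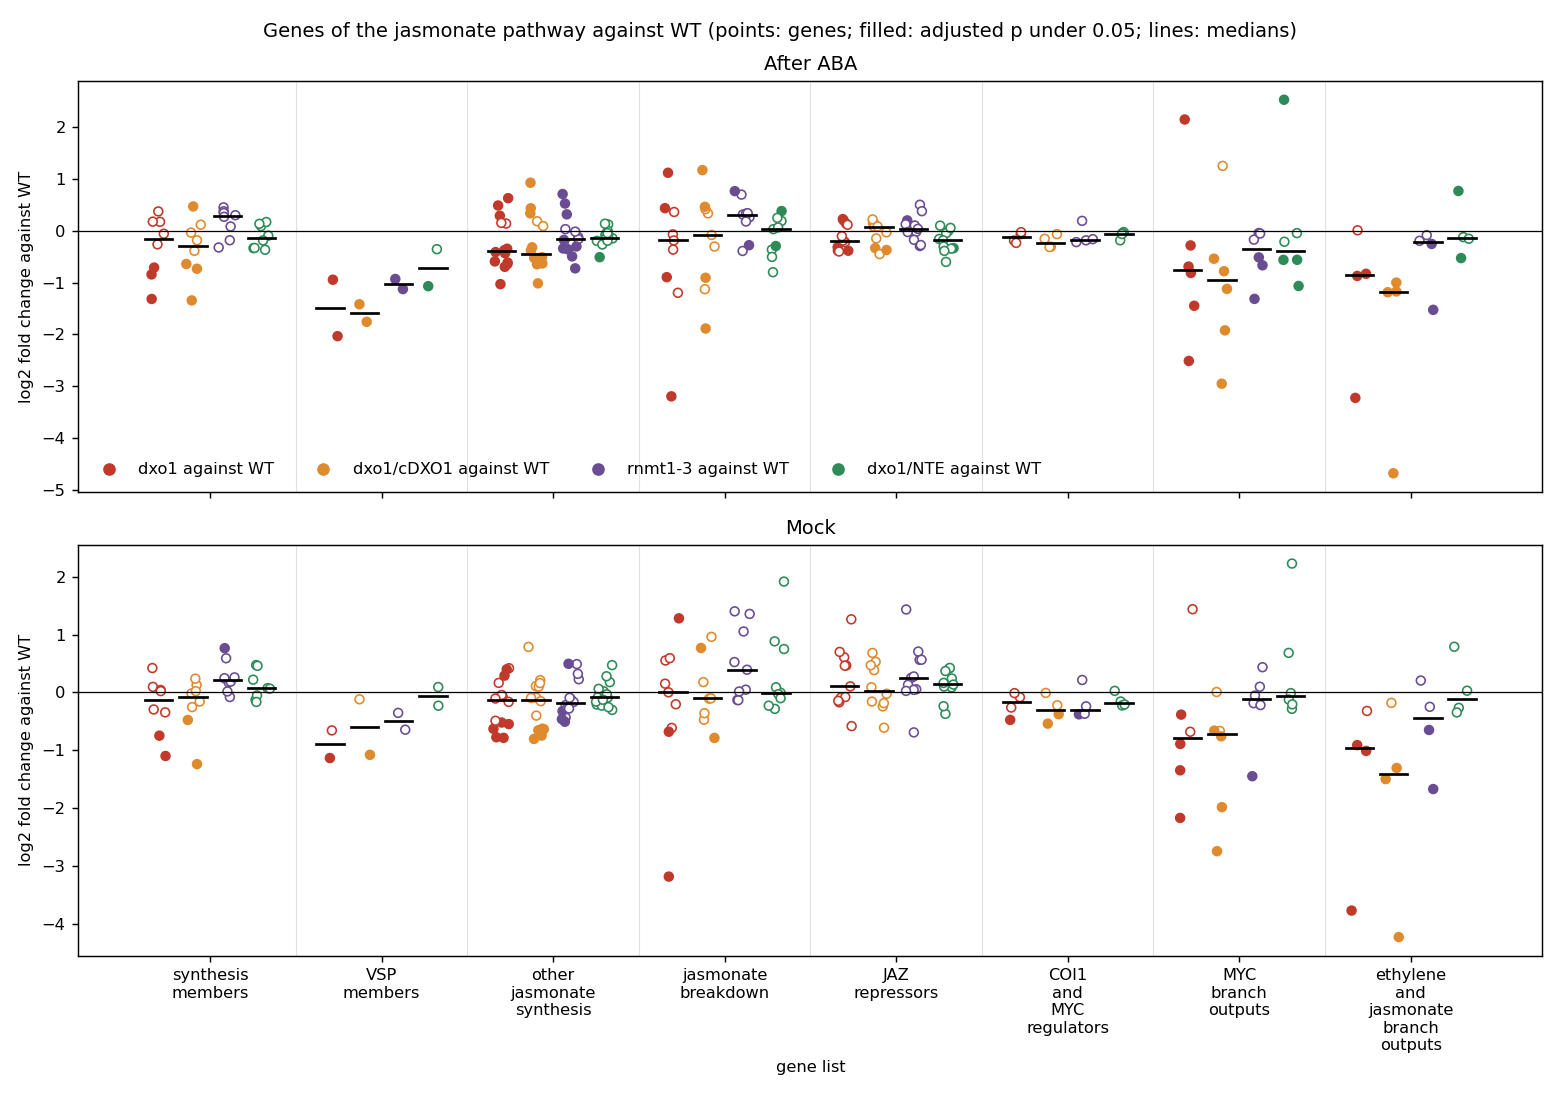
Log2 fold change against WT of every tested gene in 8 lists of jasmonate genes (2 of them the members), for the 4 genotypes, with ABA and mock in separate panels; points are genes (filled where called) and lines the list medians. The outputs of the MYC branch lie mostly below 0 in *dxo1*, with a median of -0.75 after ABA and -0.78 under mock.

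Markers of shoot mesophyll and of root were read beside these results. The summed level of the 5 shoot markers after ABA averaged 31377 TPM in *dxo1* and 35460 in *dxo1*/*cDXO1*, with 33641 in *rnmt1-3* and 31189 in *dxo1*/*NTE*, against 30746 TPM in WT. Under mock it averaged 29655 TPM in *dxo1* (29155 to 29934), 34767 in *dxo1*/*cDXO1*, then 34418 in *rnmt1-3* and 31704 in *dxo1*/*NTE*, against 35611 TPM in WT (32779 to 37761). In *dxo1*, 1 of the 5 markers was higher and 1 lower than in WT after ABA, and 1 was higher and 2 lower under mock (1 higher and 4 lower without WT mock replicate 1). The 5 root markers summed to 3149 TPM in *dxo1*, against 3318 TPM in WT after ABA, and to 3511 TPM in *dxo1*, against 3982 TPM in WT under mock, with 2 of the 5 called higher after ABA and 1 under mock (2 higher and 1 lower without WT mock replicate 1). Of 10 genes induced by touch, 4 were higher in *dxo1* than in WT after ABA, and 3 were higher and 1 lower in *dxo1*/*cDXO1*. Under mock the edgeR test called 0 of 10 in *dxo1*, with 0 at an unadjusted p under 0.05 and 0 by DESeq2, and without WT mock replicate 1 it called 1 higher and 2 lower. In *dxo1*/*NTE* under mock it called 0 of 10 touch genes, with 5 at an unadjusted p under 0.05 and 2 by DESeq2, and without WT mock replicate 1 it called 1 higher and 9 lower. In *rnmt1-3* against *dxo1*, 1 of the 5 root markers was higher and 4 lower under mock, beside 20.2% of all genes called. After ABA 1 was higher and 3 lower, beside 27.0% of all genes called. Of the 5 shoot markers, 3 were higher in *rnmt1-3* than in *dxo1* under mock and 2 after ABA, and 0 were lower. The part of tissue makeup and of handling in the differences of the set was not tested.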

How the data were processed

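The authors aligned reads to TAIR10 and counted them per gene; the submitters' processing notes name FastQC 0.11.8, HISAT2 2.2.1 and Subread 2.0.8 with featureCounts. The treatment of reads with several alignments and the strand setting are not given in the sources used here. The deposited table holds raw counts for 32833 genes in 30 libraries and a gene length in bases (unit other), which the authors deposited beside the counts; TPM was computed from both. The samples were grouped by genotype and treatment from their labels, with 3 libraries per group.

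Each comparison used the counts of its 6 libraries, as the study compared groups in pairs: edgeR 4.0.16 in R 4.3.3, filterByExpr with a minimum of 10 counts and 15 over the libraries, scaling by TMM and the quasi-likelihood test, with p-values adjusted by Benjamini-Hochberg over every gene tested and a threshold of 0.05. The SE is the absolute log2 fold change over the root of F, and 95% intervals use the residual degrees of freedom. Interactions used 12 libraries. The 30 libraries had 17961410 to 23249299 counts, which limits precision mainly for VSP2. Motif windows, gene positions and the sequences printed come from the RefSeq annotation and genome TAIR10.1. The procedure was tested on simulated counts.

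Alternatives were DESeq2 1.42.0, RLE scaling, no filter on low counts, a spread estimated from all 30 libraries, the replicate number as a block and each library left out. The members, gene lists and tests were chosen with earlier results of these data known. The comparison of *rnmt1-3* with *dxo1*, and the list counts by DESeq2 or without WT mock replicate 1, were added after seeing the values. The genes named are the 10 members, each tested in every comparison and given there where it was called or its value bears on the comparison, and of each other list at most 3 called genes per direction, those with the largest change. Replicate numbers were checked over 45 pairs of groups by the correlation of same-numbered libraries' deviations: the mean ran from -0.033 to 0.160, and 1 pair compared here, *dxo1*/*cDXO1* mock and *dxo1* mock, had all 3 over 0.1. No library or column was left out.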

Additional observations from a re-analysis of the deposited data

How the results depend on the processing

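Of 46 called values of the 10 genes in 23 comparisons, 30 kept their call and direction under every alternative, 16 lost the call under at least 1, and 0 reversed; of 184 values not called, 29 were called under at least 1 alternative. RLE scaling shifted the median of all genes by at most 0.0233 in absolute log2 value. The number of members called changed by more than 1.5 times as follows, with the value as reported in brackets. With the replicate block it was 0 for *rnmt1-3* against WT under mock [1], 6 for *rnmt1-3* against WT after ABA [2], 3 for *dxo1*/*NTE* against WT after ABA [1], 1 for ABA against mock in *dxo1*/*cDXO1* [0], 2 in *dxo1*/*NTE* [1], and 1 for *dxo1*/*cDXO1* against *dxo1* under mock [0] and 1 after ABA [0]. Without the filter it was 5 for *rnmt1-3* against WT after ABA, 2 for *dxo1*/*NTE* against WT after ABA, 2 for ABA against mock in *dxo1*/*NTE* and 1 for *dxo1*/*cDXO1* against *dxo1* after ABA. With all 30 libraries it was 0 for *dxo1*/*NTE* against WT after ABA, 1 for ABA against mock in *dxo1* [3], and 3 for *rnmt1-3* against *dxo1* under mock [5] and 3 after ABA [5]. DESeq2 gave 2 for ABA against mock in *dxo1*/*NTE*. The block lost the calls of VSP2 in *dxo1* under mock (edgeR, adjusted p = 0.0779) and AOC1 in *rnmt1-3* under mock (edgeR, adjusted p = 0.0557). By Spearman's rho, 1 of the 5 genes most alike the synthesis genes was shared.

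Leaving out 1 library gave, after ABA against WT, 5 to 7 members for *dxo1*, 4 to 6 for *dxo1*/*cDXO1*, 2 to 5 for *rnmt1-3* and 1 to 1 for *dxo1*/*NTE*; under mock 2 to 3, 1 to 3, 0 to 3 and 0 to 0 in the same order. For ABA against mock it gave 2 to 3 in *dxo1*, 0 to 3 in *dxo1*/*cDXO1*, 1 to 2 in *rnmt1-3*, 0 to 4 in *dxo1*/*NTE* and 1 to 2 in WT, and 0 to 0 for each interaction. Against *dxo1* it gave 5 to 6 for *dxo1*/*NTE* after ABA and 3 to 4 under mock, 0 to 1 and 0 to 0 for *dxo1*/*cDXO1*, and 3 to 6 and 3 to 4 for *rnmt1-3*. The cause of these changes was not tested.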

Other observations

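The genes whose pattern over the 30 libraries was most like the mean of the synthesis members, among 19712 genes with a mean of at least 1 TPM, were HIR2 (r = 0.787), AT3G19010 (r = 0.766), AACT1 (r = 0.750), CTF2B (r = 0.744) and AT5G05600 (r = 0.741), by Pearson's r of log2(TPM + 1). For the VSP members they were MT2A (r = 0.878), AT4G17840 (r = 0.868), SEH (r = 0.867), AAO3 (r = 0.859) and ROC3 (r = 0.859). Libraries of a group share genotype and treatment, so these values are descriptions.

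Between members, LOX2 and AOC2 had the highest correlation of log2(TPM + 1) over the 30 libraries of the pairs with LOX2 (r = 0.919). Their deviations from the group means also followed each other (r = 0.756). LOX2 and AOC1 gave r = 0.781 over the libraries and 0.748 within groups, and AOC1 and AOC2 gave 0.753 and 0.819. VSP1 and VSP2 gave 0.552 and 0.452. LOX4 and AOC3 gave 0.661 and 0.501.

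Some jasmonate genes had too few reads to test: DAD1 had 0 to 4 counts per library, JAZ8 0 to 8, JMT 0 to 13, ERF1 0 to 17, THI2.1 0 to 3 and AT3G11180 0 to 7. MYC2 is listed at 0 in every library, and AT1G32640 was therefore left out of every test. The reason for this 0 is not known, and it is not read as the expression level of MYC2.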
